A study of Danio rerio with 2 samples.

Results

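Broad interior uracil-DNA regions are stretches of at least 5 kb in which DNA of zebrafish embryos at 2.5 hours post fertilization (hpf) was enriched for uracil. They were chosen from the authors' list made with alignments filtered on mapping quality at a threshold of 0.25. A region was kept when it was 5000 bp or longer, lay on chromosomes 1 to 25 other than chromosome 4, and had its midpoint more than 2 Mb from either end of its chromosome. This gave 677 regions of the 14806 in the list, and positions are on GRCz11. The remaining 11524 regions with the same position but under 5000 bp are called shorter regions and serve as the comparison. Of all 867 regions of 5000 bp or more, 58 lay on chromosome 4 and 132 near the ends of other chromosomes, and these were not used here.

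The uracil-DNA enriched library and the input library came from genomic DNA of wild-type embryos of the AB strain, pooled and with no treatment. For the enriched library, sonicated fragments were pulled down with a FLAG-tagged U-DNA sensor protein on an anti-FLAG gel. The input was sonicated DNA without the pull-down. There was 1 library per group, so no value below has an error between embryos, and no test between groups could be made. The length rule used the enrichment itself, hence length, score and nesting of these regions are given as descriptions.

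Uracil enters DNA in place of thymine when dUTP is used by DNA polymerases, and it also arises where cytosine loses its amino group. dUTPase, encoded by dut, keeps dUTP low, and uracil-DNA glycosylases remove uracil from DNA as the opening step of base excision repair. Embryos at 2.5 hpf are in the fast cleavage divisions, in which the genome is replicated repeatedly with little transcription of its own. A pull-down reports where uracil-containing fragments are relatively frequent in a pool of embryos, and it does not resolve single uracils or strands.

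Each region has a deposited score, for which no scale or unit is stated. A check was made of what it measures, using the regions of the list at 0.5 that lie inside regions of the list at 0.25. Where the score is a mean over the region, the bases of a broad region outside its parts at 0.5 must average between 0.25 and 0.5. In 505 broad regions with such remaining bases, all 505 averages lay in this window, from 0.287 to 0.459 with a median of 0.386. The same held for all 84 regions of the filtered list at 0.5 that hold a region at 1, where the remaining bases averaged from 0.564 to 0.902. The score was therefore read here as the mean height of the authors' enrichment signal over a region. The read depth behind a region is unknown.

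Broad regions made up 5.55% of the interior regions but 30.8% of their bases. They covered 5.71 Mb, against 12.8 Mb in shorter regions, which amounts to 0.489% and 1.10% of the 1168.8 Mb of interior sequence on 24 chromosomes. The median length was 6100 bp in broad regions and 700 bp in shorter ones. Lengths of broad regions were skewed. The middle 50% lay between 5300 and 8700 bp, the longest region had 56.1 kb, and 191 of the 677 regions held 50% of all broad bases. By length, 320 regions had under 6000 bp, 150 had 6000 to under 8000 bp, 146 had 8000 to under 15000 bp and 61 had 15000 bp or more. Those 61 regions carried 26.2% of the broad bases.

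The cut at 5000 bp lies on a local peak of region lengths. Among interior regions, 205 had 4000 to 4400 bp, 244 had 4500 to 4900 bp and 225 had 5000 to 5400 bp, whereas 95 had 5500 to 5900 bp. A peak at the same length was present in the other filtered lists over the whole genome. At a threshold of 0.5 the 4 steps held 33, 55, 60 and 13 regions, and at a threshold of 1 they held 5, 9, 11 and 4. In the unfiltered list at 0.25 they held 209, 282, 246 and 95 regions. No smoothing width is stated in the sources used here, and the part of such processing in the peak, and so in which regions count as broad, was not tested. Members just inside and just outside the cut were alike in score, as the 61 regions of 5000 bp had a median of 0.392 (0.288 to 0.941) and the 55 regions of 4900 bp had a median of 0.390 (0.294 to 0.551). Further from the cut they differed, as the median rose from 0.343 at 4600 bp to 0.465 at 5400 bp.

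**Figure D1:**
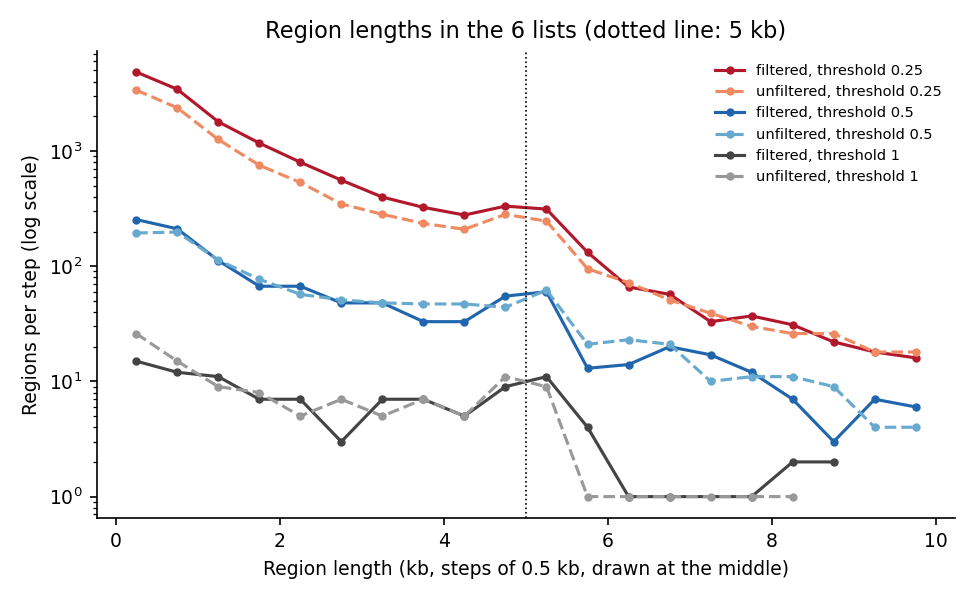
Number of regions per step of 0.5 kb in length (log scale) for the 3 thresholds, from filtered alignments (solid) and unfiltered ones (dashed), over the whole lists up to 10 kb. The counts in all 6 lists have a local peak near 5 kb, where the dotted line marks the cut for broad regions, for example 60 filtered regions of 5000 to 5400 bp at a threshold of 0.5 against 13 of 5500 to 5900 bp.

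Scores of broad regions had a median of 0.455 (middle 50% from 0.394 to 0.568), while shorter regions had a median of 0.271 (0.258 to 0.292). Broad scores ran from 0.278 to 1.25, and the highest shorter score was 0.704. The median increased with each step in length. It was 0.418 for broad regions under 6000 bp, 0.477 from 6000 bp, 0.516 from 8000 bp and 0.628 from 15000 bp, whereas shorter regions of 4000 to 4900 bp had 0.350 and those under 500 bp had 0.256. Across the 677 broad regions, Spearman's rank correlation between length and score was 0.47 and Pearson's r was 0.36. The points share 1 pair of libraries and neighbouring stretches, so these values describe the list only. In the 11524 shorter regions the rank correlation was 0.89 and Pearson's r was 0.81.

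**Figure D2:**
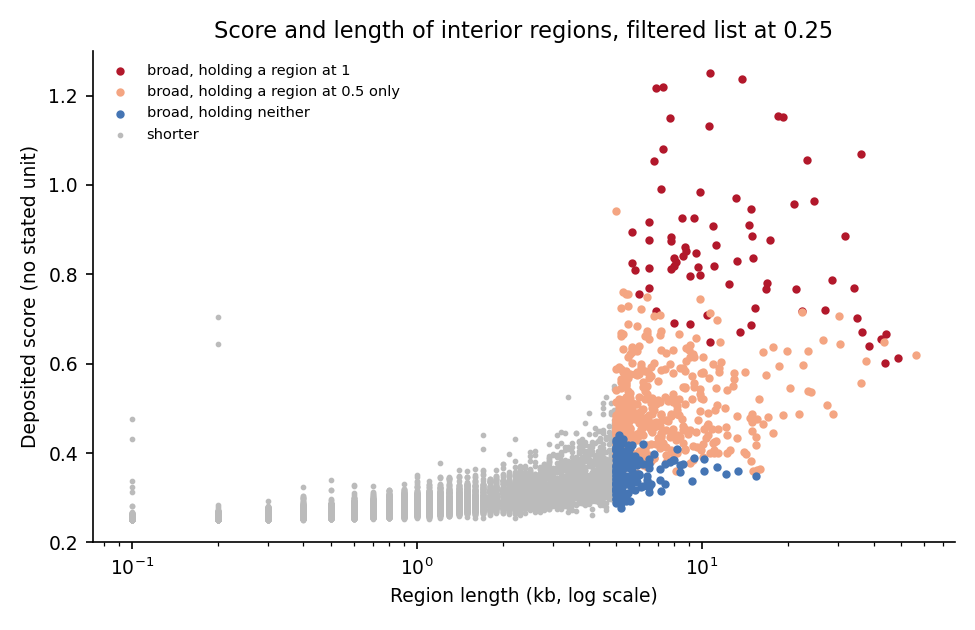
Deposited score against region length (log scale) for interior regions of the filtered list at 0.25, with broad regions coloured by whether they hold a region at 1, at 0.5 only, or neither, and shorter regions in grey. Scores above 1 occur from 6.8 kb to 36.1 kb in length, and the longest regions, over 40 kb, have scores between 0.601 and 0.665.

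The lists at higher thresholds show how the signal is distributed inside the broad regions. A region at 0.5 was present in 506 of the 677 broad regions (74.7%), against 130 of the shorter ones (1.13%) and 5.21% of all interior regions. The share was 57.8% in broad regions under 6000 bp, 84.7% from 6000 bp, 91.8% from 8000 bp and 98.4% from 15000 bp. Shorter regions of 4000 to 4900 bp held one in 19.2% of cases. From the side of the list at 0.5, 753 of its 905 interior regions (83.2%) lay wholly inside broad regions, and they held 95.7% of its interior bases. Those inside broad regions had a median length of 2200 bp and a median score of 0.559, and the 152 others had 600 bp and 0.521.

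A region at 1 was present in 73 broad regions (10.8%) and in no shorter one, which is 0.598% of all interior regions. All 99 interior regions of that list were inside broad regions. They were rare among broad regions under 6000 bp, where 3 of 320 held one, and were found in 25 of the 61 regions of 15000 bp or more. The lists are nested and come from the same pair of libraries, so these shares are given as descriptions. How far they follow from the way the regions were made was not tested.

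Most broad regions with a part at 0.5 held a single one (355 regions), while 95 held 2, 37 held 3 and 19 held 4 or more. Bases at 0.5 made up 46.9% of all broad bases, and bases at 1 made up 5.77%. In the 506 regions with a part at 0.5, this part covered a median of 53.4% of the length. The signal passed 0.5 at a median of 1300 bp from the edge on the left side and likewise on the right, and the middle 50% of these distances lay between 700 and 2300 bp. Steeper edges, with 0.5 reached within 300 bp, were seen at 95 of 1012 edges (9.39%). In 29 regions at least 90% of the bases were above 0.5. These 29 regions had 5000 to 43500 bp (median 7900 bp) and scores from 0.565 to 1.25, and 18 of them held a region at 1.

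The longest broad region lay on chr25:26301201-26357300, with 56.1 kb and a score of 0.619, and 4 regions at 0.5 covered 79.3% of it. The next was on chr7:64613601-64662300, with 48.7 kb, a score of 0.614 and 8 regions at 0.5. Chromosome 24 held a region of 44.3 kb from 12502801 to 12547100 (score 0.665) and another of 38.6 kb from 12400301 to 12438900 (0.640). On chromosome 12, 43.9 kb from 14332101 to 14376000 (0.601) was broken into 13 regions at 0.5, the highest number in any broad region. Thus, in the filtered list, several of the longest regions are chains of parts above 0.5 joined by lower signal. The number of parts at 0.5 differed without the filter, in either direction. In the unfiltered list at 0.5, 1 region covered 98.2% of the longest region and 1 covered 99.8% of the chromosome 12 region. The chromosome 7 region held 3 (94.7% covered), and both chromosome 24 regions held 1 each (74.7 and 99.5%). Among the rest of the 10 longest, chr25:26124901-26162500 held 3 in either list, and chr16:18221701-18257800 held 2 unfiltered against 1 filtered. Both chr16:15650501-15694000 and chr11:15117201-15153500 held 2 unfiltered against 4 filtered, and chr13:15490701-15533000 held 1 against 4.

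The other regions among the 10 longest were on chr16:15650501-15694000 (43.5 kb, 0.649), chr13:15490701-15533000 (42.3 kb, 0.655), chr25:26124901-26162500 (37.6 kb, 0.606), chr11:15117201-15153500 (36.3 kb, 0.670) and chr16:18221701-18257800 (36.1 kb, 1.07). A region on chr7:23068601-23104700 (0.557) had the same length as the last of these. This chromosome 7 region held more parts at 0.5 without the filter, 8 against 6. The chromosome 16 region with the score of 1.07 stood above the 9 others in the filtered list only. In it, a single region at 1, from 18236801 to 18252300, covered 42.9% of the length, and in the other 9 regions at 1 covered at most 11.7%. Regions of the unfiltered list at 1 covered 18.0% of it, and at most 19.8% of the 9 others. The unfiltered region at 0.25 over it was longer, 63.4 kb, and had a score of 0.705, against 0.622 to 0.801 for those over the 9 others.

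Most of the 10 highest scores belonged to members outside the 10 longest. With 6.9 to 36.1 kb, all 10 were still longer than the broad median of 6100 bp. The region chr3:57207501-57218200 led with 1.25 over 10.7 kb. Its part at 0.5, from 57207701 to 57218000, left 0.2 kb at either edge, and its part at 1, from 57208601 to 57217200, had 8.6 kb and a score of 1.39. It was followed by chr25:34650001-34663800 (1.24, 13.8 kb), with 8.4 kb at 1. Next came chr17:48914201-48921500 (1.22, 7.3 kb) and chr1:41950301-41957200 (1.22, 6.9 kb). Their parts at 1 had 5.4 kb and 5.3 kb.

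The remaining regions of the 10 highest scores were on chr5:61890201-61908700 (1.15), chr16:18197701-18217000 (1.15), chr20:25833401-25841100 (1.15), chr12:31581601-31592200 (1.13), chr15:6026701-6034000 (1.08) and the chromosome 16 region with 36.1 kb (1.07). Between 84.2 and 97.9% of the bases of these 10 were above 0.5, and between 42.9 and 80.4% were above 1. In the unfiltered list at 1, the cover was 2.59 and 18.0% for the 2 chromosome 16 regions and between 64.9 and 78.5% for the 8 others. Only 1 region was among both the 10 longest and the 10 highest. By bases at 1, the chromosome 16 regions from 18174001 to 18197300 (15.6 kb at 1) and from 18221701 to 18257800 (15.5 kb) led, and chr9:30514301-30539000 (13.2 kb) was next. Also among the 10 by this measure, and not named so far, were chr17:30873401-30894400 (10.2 kb in 4 regions at 1) and chr22:34315801-34330400 (8.7 kb in 1).

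Another broad region lay within 100 kb of 254 of the 677 broad regions (37.5%), within 10 kb of 164 (24.2%) and within 1 kb of 28 (4.14%). Shorter regions had a broad region within 100 kb in 12.3% of cases and within 10 kb in 3.17%. The median distance from a broad region to the next one was 334 kb, but for the shorter regions the median distance to a broad one was 713 kb. With gaps of up to 100 kb taken as 1 group, the 677 regions formed 92 groups of 2 or more and 423 regions stood alone. The grouped regions had a median length of 7250 bp and a median score of 0.469, and those alone had 5700 bp and 0.451. Grouped regions carried 46.7% of the broad bases.

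Of the groups, 9 had 5 or more members. A group on chr24:12360601-12592000 had 10 members with 170.7 kb, or 73.8% of its span, and 21 regions at 0.5. Its scores ranged from 0.334 to 0.837. On chr5:53285701-53461300, 10 members held 140.9 kb (80.2% of the span) with scores from 0.330 to 0.768. On chr16:18174001-18335400, 7 members held 119 kb (73.7%). The 3 leftmost members of that group had scores of 1.06, 1.15 and 1.07, while the 4 others had 0.383 to 0.551, and the 4 regions at 1 in the group, 42.3 kb in all, were in these 3. The cover at 1 depended on the filter, since unfiltered regions at 1 covered 0 kb, 0.5 kb and 6.5 kb of the same 3 members. Unfiltered regions at 0.5 still covered more of these 3 (100, 97.9 and 99.4%) than of the 4 others (82.4, 89.3, 84.4 and 0%). The unfiltered regions at 0.25 there had a score of 0.764 over the first 2 members, 0.705 over the third and the fourth, 0.515 over the next 2 and 0.340 over the last. A group of 4 members on chr25:26264401-26402300, which includes the longest region, had the highest cover among the groups with at least 100 kb of broad bases, with 127.1 kb of broad regions over 92.2% of its span.

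**Figure D3:**
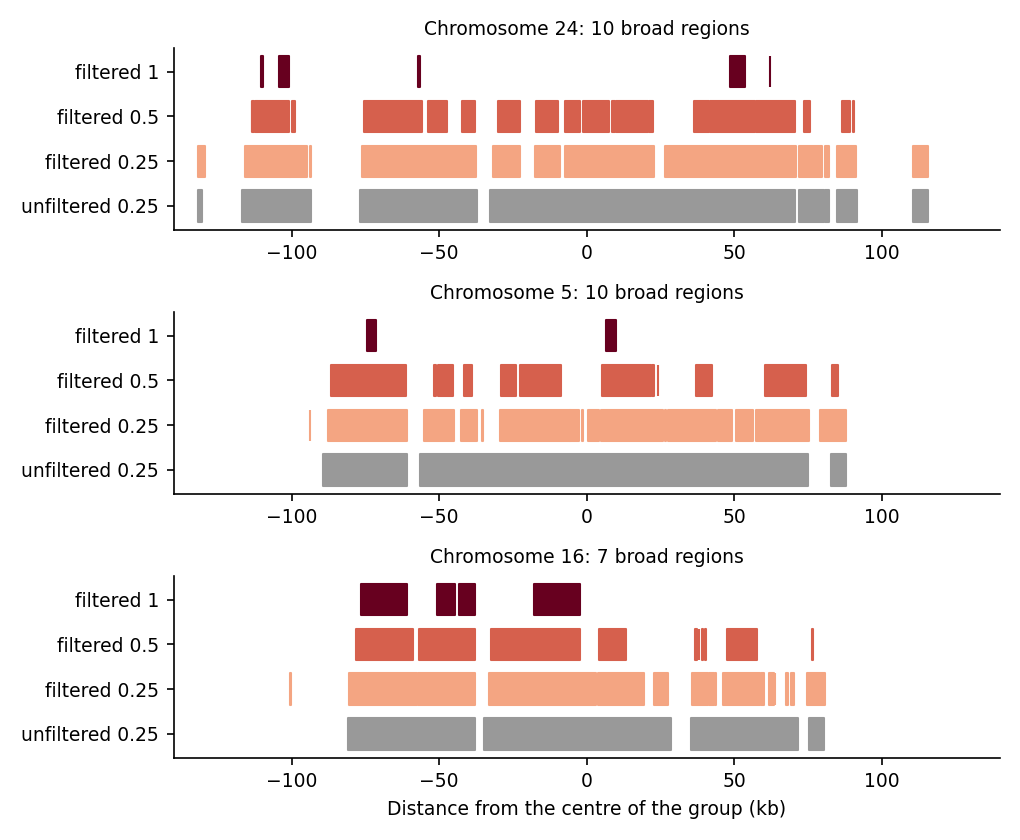
Listed regions in the 3 groups with the most broad regions, drawn as bars at their distance in kb from the centre of the group, for the filtered lists at 1, 0.5 and 0.25 and the unfiltered list at 0.25. The filtered bars at 0.25 are interrupted by short gaps that several unfiltered bars cross, and the bars at 1 lie on the left side of the chromosome 16 group.

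Around broad regions, other listed regions were denser in each distance step from 2 kb out to 200 kb. Between 5 and 10 kb from an edge, 14.6% of the bases lay in other regions of the list, against 2.91% around shorter regions of 1000 bp or more. Between 50 and 100 kb the values were 4.51 and 1.95%, and between 100 and 200 kb they were 2.93 and 1.75%. Over the whole interior, 1.59% of the bases were in a region. Other broad regions held 11.3% of the bases between 5 and 10 kb. Other bases listed there made up 3.37% around broad regions and 1.69% around the shorter ones. Closest to the edge, within 2 kb, the order was the opposite, with 5.44% around broad regions and 7.33% around shorter regions of 1000 bp or more.

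**Figure D4:**
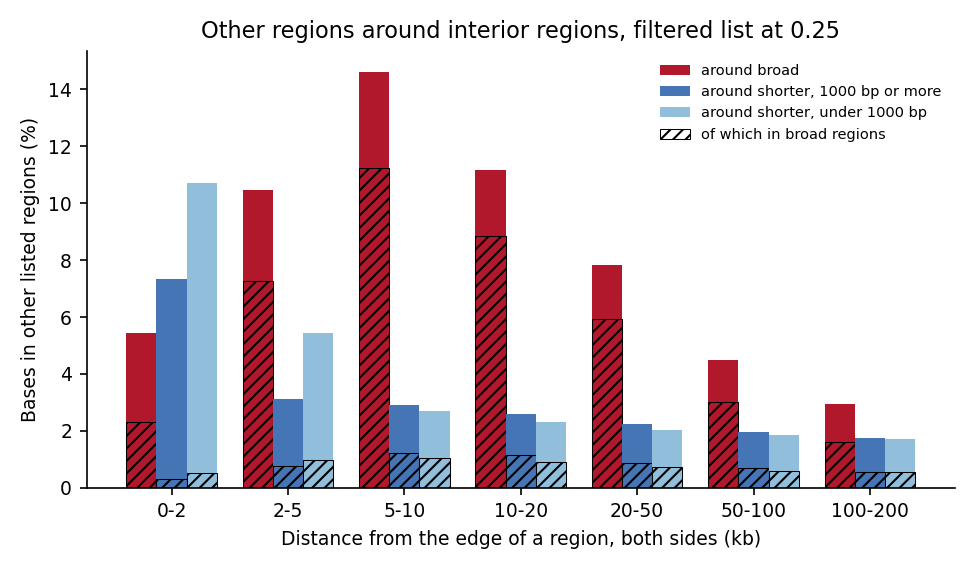
Percentage of bases in other regions of the filtered list at 0.25 by distance in kb from the edge, both sides together, around 677 broad regions, 4531 shorter regions of 1000 bp or more and 6993 under 1000 bp, with the hatched part in broad regions. Bars around broad regions are highest between 5 and 10 kb (14.6%) and stay above the others out to 200 kb, except within 2 kb.

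Broad regions were found on all 24 chromosomes considered, with 9 on chromosome 21 and 52 on chromosome 7. Per Mb of interior sequence, broad regions covered 1.60 kb on chromosome 21 and 9.18 kb on chromosome 25, with a median of 4.62 kb, a range of 5.73 times. Shorter regions covered 8.20 to 12.7 kb per Mb, a range of 1.55 times. The number of broad regions per Mb ranged by 4.21 times, and that of shorter regions by 1.36 times. These ranges rest on unlike numbers, 9 to 52 broad and 287 to 761 shorter regions per chromosome. After chromosome 21, the next lowest cover by broad regions was 2.90 kb per Mb, on chromosome 9. Chromosome 25 held 1.85 times as large a share of broad bases as of shorter bases, chromosome 12 held 1.59 times and chromosome 24 held 1.57 times. For 11 of the 24 chromosomes this ratio was above 1. It was lowest on chromosome 21 (0.364), then on chromosome 18 (0.567) and chromosome 9 (0.599).

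Single groups decided part of this order. The chromosome 24 group holds 56.1% of the broad bases of that chromosome, and without it the ratio was 0.712. Such removal took out only the chromosome's own largest group, and the ratio then had a median of 0.745 over the 24 chromosomes (0.283 to 1.28). Without its largest group, of 127.1 kb, chromosome 25 had a ratio of 1.11. Chromosome 12 had the highest ratio after such removal, 1.28, and 6.55 kb per Mb remained there. Chromosome 21 was again the lowest, with 1.24 kb per Mb, although its 9 broad regions had the highest median score of any chromosome, 0.577.

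**Figure D5:**
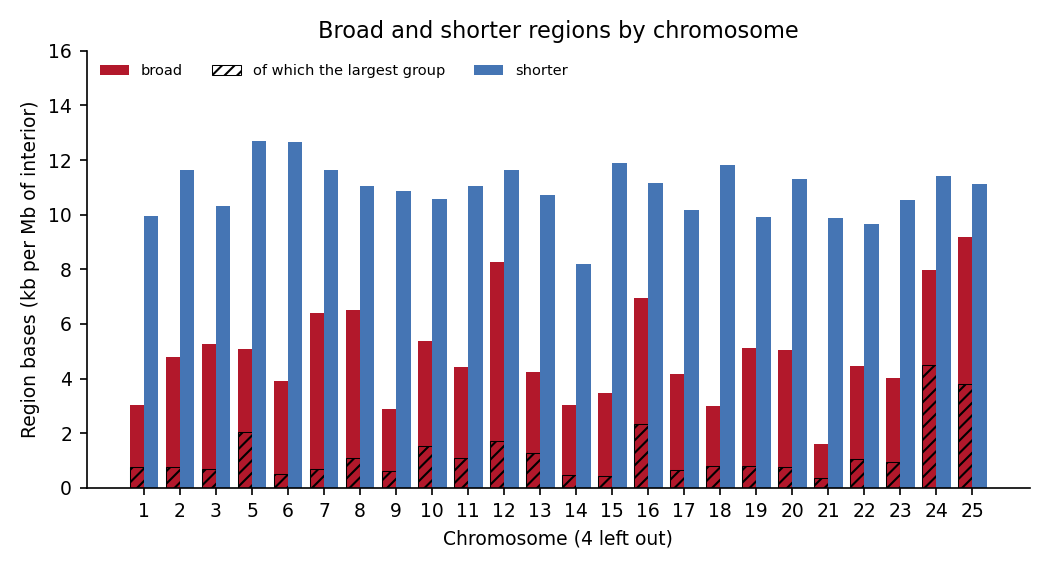
Bases in broad and shorter regions in kb per Mb of interior sequence for 24 chromosomes, with the hatched part in the largest group of broad regions. Broad bars range from 1.60 (chromosome 21) to 9.18 (chromosome 25), and shorter bars from 8.20 to 12.7.

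Alignments without the filter on mapping quality gave another list from the same pair of libraries. Unfiltered regions at 0.25 covered at least 50% of the length of 655 of the 677 broad regions (96.8%), against 38.5% of the shorter regions and 41.7% of all interior regions. Among shorter regions this share rose with length, from 14.1% under 500 bp to 83.1% at 4000 to 4900 bp, so it was not particular to broad regions. At least 90% was covered for 81.8% of the broad regions. The cover was more complete for longer members, as 59 of the 61 regions of 15000 bp or more were covered over at least 90%. The scores of both lists belong to intervals with different borders. They were compared, by a rule chosen after seeing the data, only for the 370 broad regions with a single unfiltered region that covered at least 90% of them and differed by at most 10% in length. Among these, the unfiltered score was lower in 286 and higher in 84, with a median difference, unfiltered minus filtered, of -0.026 (-0.176 to 0.261). Differences among the 10 longest were mixed in sign. Those that met this rule all had higher unfiltered scores, by 0.122, 0.118, 0.056 and 0.119. The others of the 10 did not meet it, and in order of length their differences were 0.067, 0.200, -0.033, 0.063, 0.093 and -0.364. Without the limit on borders, the median difference was 0.020 from 15000 bp, against -0.024 under 6000 bp, -0.026 from 6000 bp and -0.023 from 8000 bp.

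Borders shifted in either direction without the filter. There were 28 unfiltered regions that each touched several broad regions, 67 of the 677 in all, while 81 broad regions were touched by several unfiltered regions. The longest, on chr5:53317001-53448500, had 131.5 kb and took in 8 members of the group described above, with a score of 0.696. The same length and position rule applied to the unfiltered list gave 657 regions, of which 517 (78.7%) touched a filtered broad region.

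Of the 22 broad regions covered by less than 50%, none held a region at 1, 7 held a region at 0.5, and scores ranged from 0.301 to 0.511. These 22 regions were short for broad regions, with a median of 5300 bp (5000 to 8200 bp). Of all 677 broad regions, 10.8% held a region at 1 and 74.7% held a region at 0.5. Among the 320 broad regions under 6000 bp the shares were 0.938 and 57.8%. No unfiltered region touched 7 of the 677 broad regions (1.03%), against 49.97% of the shorter regions and 47.3% of all interior regions. Among shorter regions this share fell with length, from 83.95% under 500 bp to 5.12% at 4000 to 4900 bp. The 7 broad regions were on chromosomes 3, 6, 8, 12, 14, 17 and 18 and had 5.0 to 6.5 kb. The highest score among them was 0.459, on chr17:46931301-46937500, and this was the only one of the 7 with parts at 0.5.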

How the data were processed

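The uracil-DNA enriched and input libraries (1 each) were sequenced in paired reads of 151 bp. The authors mapped the reads to GRCz11. The submitters' processing notes name Trimmomatic, BWA, SAMtools and deepTools. The authors deposited 6 region lists with a score per region, at thresholds of 0.25, 0.5 and 1, from alignments filtered on mapping quality and from unfiltered ones. For the region caller, the mapping quality cutoff, the scale of the score and any smoothing width, nothing is given in the sources used here. Region borders are multiples of 100 bp, with 3 exceptions among the ends. Positions are counted from 1. Chromosome ends were taken as the last listed base in any list.

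Overlaps and distances were computed with numpy 2.4.6 and pandas 2.3.3, and the code was tested on simulated intervals. An overlap of 1 bp counted as holding a region, and 50% of the length as covered. No test was made, because there was 1 library per group and the members were chosen on the enrichment itself. The members, the comparisons and the rule for named regions (the 10 longest, the 10 highest scores, the 10 with the most bases at 1, the 3 groups with the most members) were chosen with earlier results of these data known. The broad regions that hold a region at 1 were too many to name in full. No gene was named and no sequence or base composition is given, because a genome and gene annotation of GRCz11 were not used here. The gene table at hand is built on another assembly.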

Additional observations from a re-analysis of the deposited data

How the results depend on the processing

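No paired analysis was possible because each group has a single library. The count of broad regions, 677, was 1126 with a least length of 4000 bp and 129 with 10000 bp. It was 581 at 5 Mb from chromosome ends, 732 with gaps of up to 1 kb joined and 657 without the mapping quality filter. In the same order of least length, 4000 and then 10000 bp, the share of interior bases (30.8%) was 41.7 and 12.4%, the difference in median score, broad minus shorter (0.184), was 0.129 and 0.306, the share holding a region at 0.5 (74.7%) was 52.6 and 95.3%, the share holding a region at 1 (10.8%) was 6.48 and 31.0%, the share covered by unfiltered regions (96.8%) was 91.3 and 100%, and the highest chromosome ratio (1.85, chromosome 25) was 1.86 and 2.64 on the same chromosome. At 5 Mb from ends, the share of bases was 31.8%, the score difference 0.189, the share with a broad neighbour within 100 kb (37.5%) was 41.5%, and the ratio 1.84. With gaps joined, the values were 32.1% of bases, 0.165 in score, 68.9% holding a region at 0.5, 92.8% covered, and a ratio of 1.73. Without the filter, they were 43.0% of bases and 0.197 in score, and the highest ratio was 1.57, on chromosome 12. Requiring 90% cover gave 81.8%, and neighbours within 10 kb and 1 Mb gave 24.2 and 72.1%. Leaving out the largest group of chromosome 25, an alternative added after seeing the data, gave a ratio of 1.11. Also added after seeing the data were the unfiltered list at 1, which covered 0 kb, 0.5 kb and 6.5 kb of the 3 chromosome 16 regions with 15.6, 11.2 and 15.5 kb at 1 in the filtered list, and the limit to like borders for the score comparison of both lists. Most shares rose or fell with the least length, which picks the members. The share with a broad neighbour within 100 kb stayed close, at 36.4% with 4000 bp and 37.2% with 10000 bp. It was 35.0% with gaps joined and 38.1% without the filter. The shares holding a region at 0.5 and at 1 were 75.2 and 11.4% at 5 Mb from ends, and 76.9 and 10.4% without the filter. With gaps joined, 9.84% held a region at 1, and at 5 Mb from ends 96.7% were covered. The cause of the shifts was not tested. The lists hold no read counts, so depth and variation between embryos limit these values in a way that cannot be given.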
